A study of Mus musculus with 2 samples.

Results

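The genes described here are 8 transcription factors of naive pluripotency, Nanog, Esrrb, Tfcp2l1, Tbx3, Nr5a2, Nr0b1, Zfp42 and Prdm14, taken by symbol from the 30774 gene identifiers of an Illumina mouse beadchip. Tfcp2l1 is listed on the array under its older symbol, Tcfcp2l1. Each gene had 1 entry on each array, and a search by Entrez gene number found no further entry. The array experiment asked which genes respond to CHIR99021 (CHIR), an inhibitor of glycogen synthase kinase 3 that activates Wnt/β-catenin signaling, in mouse embryonic stem cells (mESCs). Both samples were total RNA of B6 mESCs in serum medium with leukemia inhibitory factor (LIF), the cytokine that activates Stat3. One sample had LIF alone and the other had LIF plus CHIR, with a treatment time of 12 h. The labels give an inner cell mass origin, stage E3.5 and strain B6, and the growth text, which names both agents, is the same for both samples. The assignment to a condition therefore rests on the sample titles. The methods of the study describe the culture of another mESC line and state no CHIR concentration for the arrays. Each condition had 1 array, so no difference below has a replicate check or a p-value, and the values describe these 2 RNA samples.

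A signal intensity is the brightness of the beads carrying a gene's probes, on a linear scale after background subtraction, and a detection p-value compares it with the negative control beads of the same array. A gene was called detected where this p-value was under 0.01, which held for 9021 identifiers without CHIR and 9174 with it. Of 6 markers of mESCs, 4 were detected on both arrays (Pou5f1, Utf1, Dppa5a and Fgf4), while Sox2 and Tdgf1 were not. Axin2, a feedback inhibitor that β-catenin induces, had a signal of 314.1 in LIF and 1178 in LIF plus CHIR, which is 3.75-fold higher. Among markers of other cell types, 1 of 6 for primitive endoderm, 3 of 6 for trophectoderm, 1 of 6 for fibroblasts and 1 of 5 for neural cells were detected on at least 1 array. Their summed signals without and with CHIR were 131.1 and 117.2 for primitive endoderm, 3236 and 3483 for trophectoderm, 1358 and 1578 for fibroblasts and 65.0 and 110.3 for neural cells. Tfap2c (3175 and 3329) made up most of the trophectoderm sums and Fn1 (1134 and 1352) most of the fibroblast sums. The largest part of the neural difference lay in Sox1 (-7.23 and 28.9), which was not detected on either array. Tfap2c, Fn1, Sox7 (45.9 and 59.0) and Krt7 (57.3 and 54.5) were detected on both arrays. Cdx2 (93.5 against 23.6) and Nes (44.8 against 27.7) were detected in LIF plus CHIR only. The other markers of these lists, among them Gata4, Sox17, Elf5, Eomes, Col1a1 and Pax6, were not detected on either array. The fibroblast marker Thy1 was also among them, with signals of 222.3 and 225.3 and detection p-values of 0.35 and 0.30. For Thy1 this call does not show that its RNA was absent. The part of other cell types in the results below was not tested.

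Naive pluripotency is the state of the pre-implantation epiblast, and mESCs keep it through a network of transcription factors that maintain one another. In the absence of a Wnt signal, Tcf7l1 (also called Tcf3) represses many of these genes, and stabilized β-catenin relieves that repression. Nanog is the homeodomain factor at the centre of the network. Esrrb and Nr5a2 are orphan nuclear receptors that bind the regulatory DNA of pluripotency genes, and Nr0b1 is an atypical nuclear receptor without the usual DNA-binding domain that acts as a corepressor. Tfcp2l1 is a CP2 family factor downstream of Stat3, Tbx3 is a T-box factor, Zfp42 (Rex1) is a zinc finger protein used as a marker of the naive state, and Prdm14 is a zinc finger protein of the PR domain family that restrains DNA methylation and FGF signaling.

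The signal of 6 of the 8 factors was detected on both arrays, and all 6 were brighter in LIF plus CHIR than in LIF. Over all identifiers detected on both arrays, 49.3% were brighter in LIF plus CHIR. Tbx3, Nr5a2 and Tfcp2l1 were at least 1.5-fold higher, Nanog lay just below that limit, Esrrb was 1.28-fold higher and Zfp42 was nearly level. No factor was 1.5-fold lower. The 3 factors past the limit compare with 2.37% of the 8580 identifiers detected on both arrays, and 2.65% of these passed it in the other direction. The median log2 fold change of the 6 detected factors was 0.68, and that of the 9615 identifiers detected on at least 1 array was 0.00. Nr0b1 and Prdm14 were not detected on either array and enter neither the count nor the median. In RNA from a whole culture, more cells expressing a gene and more of its RNA per cell cannot be told apart.

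**Figure D1:**
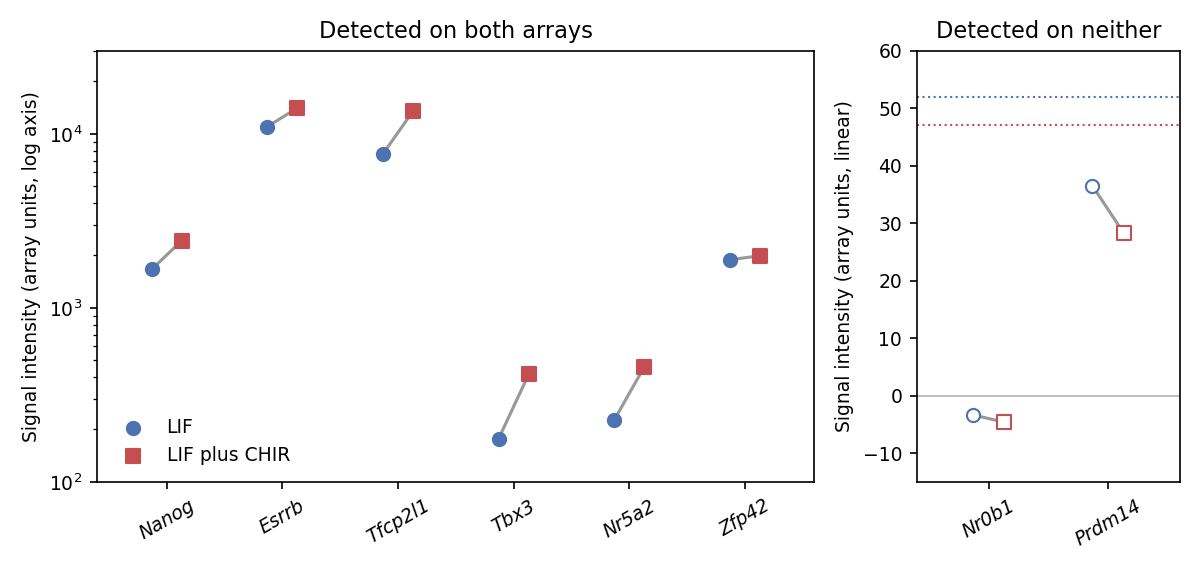
Signal intensity of each factor in LIF (circles) and LIF plus CHIR (squares), with 1 array per condition and no error bars. The left panel has a log axis and holds the 6 factors detected on both arrays, all of which have the square above the circle; the right panel has a linear axis and holds Nr0b1 and Prdm14 as open symbols, below dotted lines that mark the dimmest detected identifier with a single apparent probe (blue, 51.9 without CHIR; red, 47.1 with CHIR).

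Nanog had a signal of 1660 in LIF and 2429 in LIF plus CHIR. This was 1.46-fold higher (log2 fold change 0.55), just under the 1.5-fold limit. Among the 1719 detected identifiers of similar brightness, whose brighter signal lay between 1000 and 3000, Nanog had rank 27 by fold change. In that class 1.22% of identifiers passed 1.5-fold. Setting the medians of the detected identifiers equal added 0.05 to the log2 fold change of every factor, which took Nanog, at 0.59, just over the limit. The 3 identifiers with an Entrez number whose pair of log2 signals was nearest to that of Nanog over the 2 arrays were Btg1, Mfsd1 and Grina, at distances of 0.07, 0.09 and 0.10. Signals of different probes cannot be compared as levels, so these distances describe the numbers on these arrays and no likeness in RNA level.

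Esrrb, the first of the nuclear receptors, had signals of 10986 without CHIR and 14053 with CHIR. It was 1.28-fold higher (log2 fold change 0.36), which is below the limit. In the class with a brighter signal of 3000 or more, 1.16% of 1550 identifiers passed 1.5-fold, and Esrrb had rank 44 by fold change. Its detection p-values were 0.0015 in LIF and 9.65e-05 in LIF plus CHIR. These values are what the distribution of a sum of 2 uniform p-values gives for sums of 51 and 13 steps of 1/936, where 936 is the number of negative controls read from the steps of the p-values. Esrrb was therefore taken as the average of 2 probes, whose separate signals were not available. The sum of 51 steps in LIF cannot arise if both probes are under the detection limit by themselves. The LIF signal of Esrrb thus includes a probe not detected by itself. The sum of 13 steps in LIF plus CHIR can arise either way and does not decide this.

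Nr5a2, which is also known as LRH-1, had a signal of 226.8 in LIF and 458.1 in LIF plus CHIR. It was 2.02-fold higher (log2 fold change 1.01), but 1.16-fold higher under the normexp background correction fitted on all identifiers, which ends the call. Its detection p-values fit 3 probes, with sums of 109 and 92 steps. Sums of this size cannot arise if every probe is under the detection limit by itself, on either array. The signals of Nr5a2 are therefore averages that include a probe not detected by itself, and its separate probe signals were not available. Among 2339 identifiers whose brighter signal lay between 300 and 1000, Nr5a2 had rank 25, and 2.78% of that class passed 1.5-fold. Its percentile among all signals of an array was 78.1 without CHIR and 83.3 with it, a measure that no order-keeping normalization can change.

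Nr0b1, the remaining nuclear receptor, had signals of -3.37 in LIF and -4.61 in LIF plus CHIR, below 0 after background subtraction. Its detection p-values were 0.44 and 0.50, so about that share of the negative controls was as bright or brighter. The p-values match 1 probe. No fold change can be given, and the arrays say only that this probe was not above background, in contrast to the other nuclear receptors.

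Tfcp2l1 had a signal of 7658 in LIF and 13485 in LIF plus CHIR. It was 1.76-fold higher (log2 fold change 0.82) and had rank 9 of 1550 in the class of 3000 or more. Esrrb, in the same class, had the smaller ratio. The detection p-value was 0 on both arrays, as it was for Nanog, Tbx3 and Zfp42. For these 4 genes the number of probes could not be read, since a p-value of 0 results from 1, 2 or 3 probes alike.

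Tbx3 had a signal of 176.7 in LIF and 414.3 in LIF plus CHIR. With a 2.34-fold higher signal (log2 fold change 1.23) it had the largest fold of the 6 detected factors in the deposited signals, and it ranked 39 among all 9615 detected identifiers. Under normexp fitted on all identifiers it was 1.17-fold higher, under the limit and below Tfcp2l1, Nanog and Esrrb. Its percentile moved from 76.2 to 82.5. Of those 9615 identifiers, 0.666% were at least 2-fold higher, and Tbx3 and Nr5a2 were the factors past that limit.

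Zfp42 had a signal of 1886 in LIF and 1993 in LIF plus CHIR. The ratio was 1.06 (log2 fold change 0.08), and 525 of the 1719 identifiers in its brightness class had a fold change at least as high. Prdm14, the other zinc finger factor, had signals of 36.5 and 28.3 with detection p-values of 0.041 and 0.067, which match 1 probe. Neither p-value was under 0.01, so no fold change was given for Prdm14. Both signals were also below the dotted lines of the plot of levels.

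**Figure D2:**
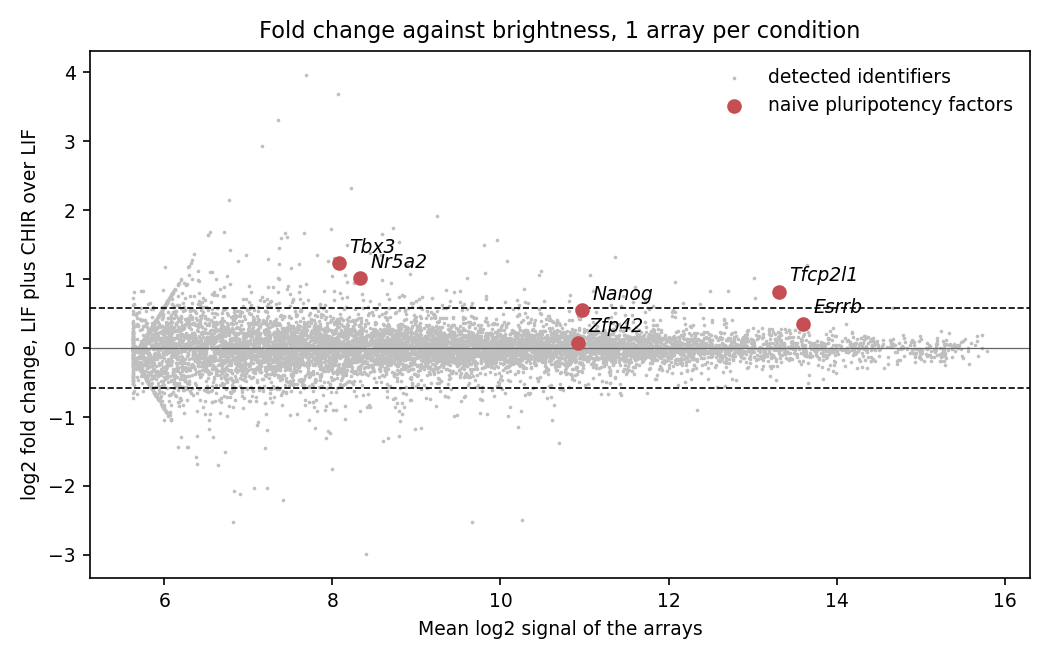
log2 fold change of LIF plus CHIR over LIF (vertical) against the mean log2 signal of the arrays (horizontal) for the 9615 detected identifiers (grey) and the 6 detected factors (red). Dashed lines mark 1.5-fold; Tbx3, Nr5a2 and Tfcp2l1 lie above the upper line, Nanog touches it from below, and the bright end, where Tfcp2l1 and Esrrb lie, is the narrow end of the cloud. The slanted edges on the left come from signals raised to the minimum.

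The promoter sequences of the factors were set beside these values, since β-catenin acts through Tcf/Lef factors and LIF through Stat3. RefSeq windows of 250 bases before to 50 bases after the start (build GRCm38.p6) were at hand for 6 of the 8 factors, in 9 windows; Tbx3 and Prdm14 had no entry. Shown are a factor past the limit (Tfcp2l1), factors with smaller ratios (Nanog, Esrrb and Zfp42) and an undetected factor (Nr0b1), each 5′ to 3′ on the strand of the gene. Capitals mark the words searched: CTTTGA and CTTTGAT for Tcf/Lef, TTCNNNGAA for Stat, ATGCAAAT for the Pou octamer, ACAATG for Sox, AAGGTCA for Esrrb and Nr5a2, and TATAAA for the TATA box, each on both strands. CTTTGAT contains CTTTGA. The TATA word was added after the sequences were seen.
Tfcp2l1, chr1:118627695-118627994, plus strand: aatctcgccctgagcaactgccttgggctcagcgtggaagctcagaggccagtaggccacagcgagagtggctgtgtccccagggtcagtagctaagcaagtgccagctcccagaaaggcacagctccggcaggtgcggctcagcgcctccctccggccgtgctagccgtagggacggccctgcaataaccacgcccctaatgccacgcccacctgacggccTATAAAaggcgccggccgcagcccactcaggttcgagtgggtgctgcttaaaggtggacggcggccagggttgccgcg
Nanog, chr6:122707239-122707538, plus strand: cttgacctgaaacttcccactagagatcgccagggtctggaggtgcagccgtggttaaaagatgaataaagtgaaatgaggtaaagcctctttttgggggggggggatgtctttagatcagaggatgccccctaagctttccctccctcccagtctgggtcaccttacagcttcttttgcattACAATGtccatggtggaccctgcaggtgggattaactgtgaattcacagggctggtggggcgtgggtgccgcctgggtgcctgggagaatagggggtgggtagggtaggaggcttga
Esrrb, chr12:86360867-86361166, plus strand: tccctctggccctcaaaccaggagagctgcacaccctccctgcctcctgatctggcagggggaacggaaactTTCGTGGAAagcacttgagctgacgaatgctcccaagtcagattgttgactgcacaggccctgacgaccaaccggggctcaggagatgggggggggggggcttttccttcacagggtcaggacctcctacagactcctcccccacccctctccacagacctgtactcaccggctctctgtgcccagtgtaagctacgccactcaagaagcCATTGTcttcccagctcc
Zfp42, chr8:43306960-43307259, minus strand: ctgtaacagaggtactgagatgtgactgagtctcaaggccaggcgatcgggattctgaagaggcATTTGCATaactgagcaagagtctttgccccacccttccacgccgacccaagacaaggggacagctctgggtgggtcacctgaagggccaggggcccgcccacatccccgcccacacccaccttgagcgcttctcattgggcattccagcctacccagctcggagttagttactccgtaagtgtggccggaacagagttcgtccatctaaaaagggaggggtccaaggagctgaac
Nr0b1, chrX:86191525-86191824, plus strand: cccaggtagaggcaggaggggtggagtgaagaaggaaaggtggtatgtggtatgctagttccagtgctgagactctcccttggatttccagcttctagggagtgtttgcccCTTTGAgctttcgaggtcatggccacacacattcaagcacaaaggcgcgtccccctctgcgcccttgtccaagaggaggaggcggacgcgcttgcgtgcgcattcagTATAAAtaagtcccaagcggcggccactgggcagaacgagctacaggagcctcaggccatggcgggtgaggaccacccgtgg

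The Tcf/Lef word CTTTGA occurred in 1 of the 9 windows, that of Nr0b1 at position -139, and in 16% of all 32851 windows. Its longer form was in none of the 9 and in 3.73% of all. The Stat word was in 1 window, upstream of Esrrb at -178, against 8.3% of all windows. The octamer was in the Zfp42 window at -186 (1.74% of all). The Sox word was in both overlapping Nanog windows, as one and the same site, at -67 in the window shown, and in the Esrrb window at 33, while 12.6% of all windows held it. The word of Esrrb and Nr5a2 was in none of the 9 windows and in 4.72% of all. TATAAA lay at -28 in Tfcp2l1, at -32 in Nr0b1 and, on the minus strand, at -181 in a window of Nr5a2, and was in 13.6% of all windows. Tfcp2l1 and Nr5a2, the factors past 1.5-fold that had windows, shared the TATA word alone, at different positions. GC content ran from 42.0% in a window of Nr5a2 to 65.3% in Tfcp2l1, around a median of 52.7% over all windows. A match is a string of letters, not a bound site, and enhancers lie outside these windows.

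**Figure D3:**
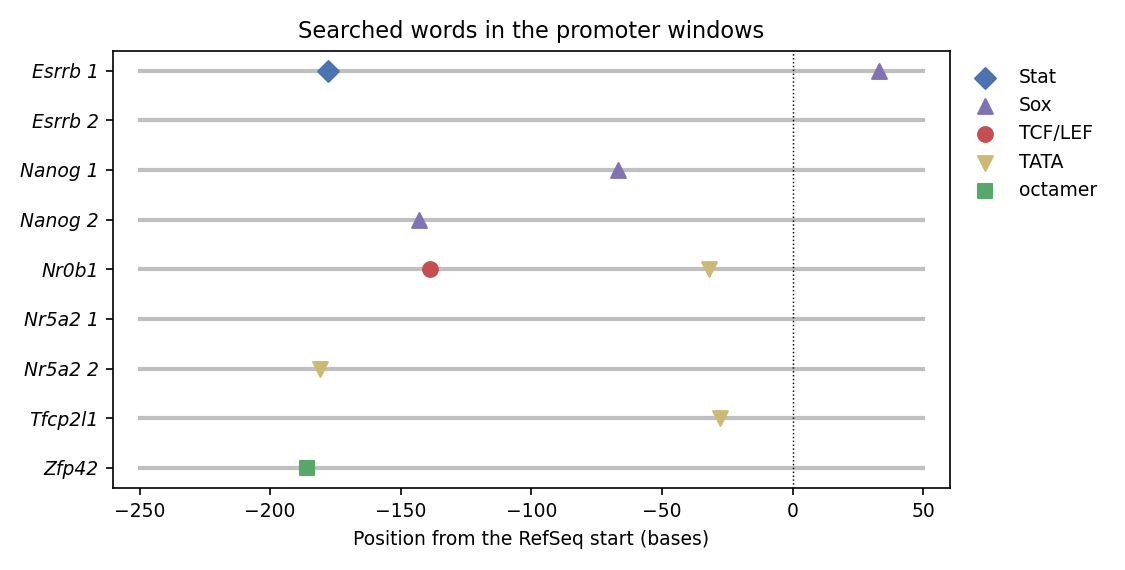
Position of each searched word (symbols) along the 9 promoter windows (grey lines), in bases from the RefSeq start, with numbers after a symbol for genes with more than 1 window. The Tcf/Lef word appears only in the Nr0b1 window among the 9, and the windows of Esrrb 2 and Nr5a2 1 hold no searched word.

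Further genes of the pluripotent state were measured on the same arrays. Of 13 other naive pluripotency genes, 11 were detected, 2 passed 1.5-fold as higher and 1 as lower, with a median log2 fold change of -0.04. Over the 9615 identifiers detected on at least 1 array, 2.64% passed as higher and 2.88% as lower. Klf2, a Krüppel-like factor, was higher, with 4332 without CHIR and 7689 with it (1.77-fold). Jam2, a junctional adhesion molecule, had 164.5 and 266.7 (1.62-fold). Klf4 had 965.7 and 1444, a ratio of 1.49 that like that of Nanog was just under the limit. Fgf4, the ligand that starts FGF-ERK signaling in these cells, was 1.66-fold lower, with 712.7 and 430.1. Gbx2 (10911 and 10550) and Dppa3 (4216 and 4105) had ratios of 0.97 each.

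Of 12 core pluripotency genes, 7 were detected and none passed 1.5-fold in either direction. Pou5f1 (Oct4) had 12347 in LIF and 11309 in LIF plus CHIR, a ratio of 0.92. Their median log2 fold change was -0.12. Of the 7, 1 was brighter with CHIR, against 6 of 6 naive factors and 5 of 11 other naive genes. Over all identifiers detected on both arrays this share was 49.3%. Of 8 formative and post-implantation epiblast genes, 5 were detected, none was brighter with CHIR and 2 were at least 1.5-fold lower, with a median of -0.51. These were Otx2, a homeodomain factor of the post-implantation epiblast, with 947.4 and 119.7 (7.91-fold lower), and Pou3f1 (Oct6), a POU factor of the same stage, with 2902 and 516.2 (5.62-fold lower). Dnmt3b, a de novo DNA methyltransferase, had 15438 and 10870, a 1.42-fold lower signal. Fgf5 was not detected on either array at 0.01, with signals of 43.9 and 12.1.

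**Figure D4:**
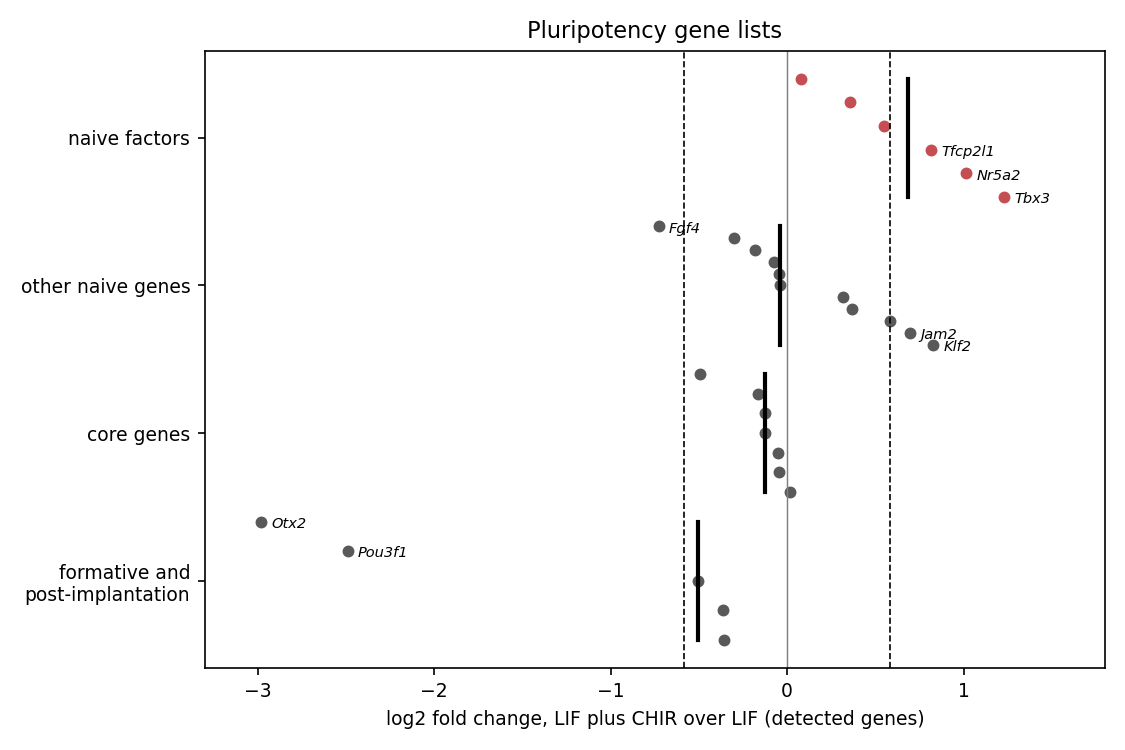
log2 fold change of LIF plus CHIR over LIF for the detected genes of 4 lists, 1 point per gene, with the black bar at the median of the list and dashed lines at 1.5-fold in each direction. The medians were 0.68 for the naive factors, -0.04 for other naive genes, -0.12 for core genes and -0.51 for formative and post-implantation genes; genes past the limit are named.

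Of 12 alternatives of the processing, 7 changed only detection, the minimum signal, the table or the limit and by construction left the value of a factor detected on both arrays as it was. The other 5 changed the signals themselves, and under these all 30 values of the 6 detected factors were above 0. The pseudocount (16 added to both signals) cannot turn the direction of a fold, and scaling to equal medians raised every factor by 0.05. Neither could take a value below 0, so their values are no check of direction. Quantile normalization and both normexp fits keep the order of the signals within an array and then give both arrays the same distribution. Their direction therefore follows the change in percentile, which was above 0 for all 6 detected factors (0.32 for Zfp42 to 6.31 for Tbx3). They repeat that change and are no check beyond it. The log2 fold changes ran from 0.80 to 0.86 for Tfcp2l1, from 0.34 to 0.40 for Esrrb and from 0.08 to 0.13 for Zfp42. Those for Tbx3 and Nr5a2 fell to 0.22 each under normexp, a background correction that was fitted here on every identifier's detection p-value, and both then lay under 1.5-fold and below Tfcp2l1 (0.86), Nanog (0.75) and Esrrb (0.36), so that the order of the factors turned. Its fitted background SD was 588.4 without CHIR and 585.8 with it, above the signals of both genes. Fitted on single-probe identifiers alone, the SD was 15.4 and 15.3, and both genes were past the limit.

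**Figure D5:**
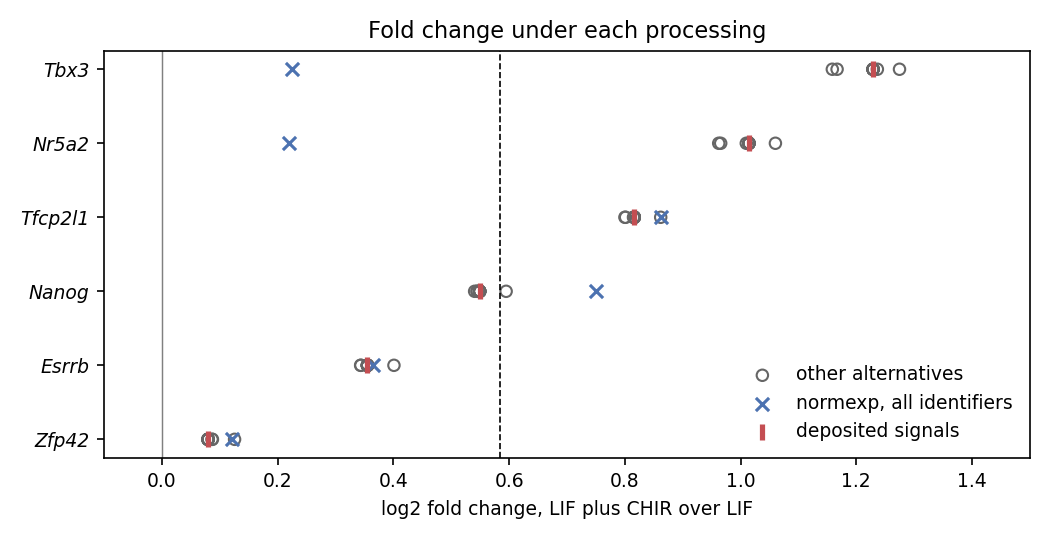
log2 fold change of each detected factor under the deposited signals (red bars), the normexp correction from every identifier (crosses) and the other alternatives (open circles), with the dashed line at 1.5-fold. All points lie right of 0, and the crosses of Tbx3 and Nr5a2, both at 0.22, stand apart from their circles.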

How the data were processed

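Illumina mouse beadchips were hybridized with RNA of B6 mESCs, 1 array with LIF alone and 1 with CHIR added. The authors deposited linear signal intensity for 30774 gene identifiers, with the background subtracted (11742 identifiers were below 0 without CHIR) and with nearly equal distributions on the arrays (differences of 0.0440% to 1.40% at 5 percentiles), and a detection p-value beside each intensity. The normalization and the software are not given in the sources used here. A shorter deposited table of 11702 identifiers holds the same values (0 differences).

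Identifiers with a detection p-value below 0.01 on either array were used. An undetected signal was raised to that of the dimmest detected identifier with a single apparent probe (51.9 without CHIR, 47.1 with CHIR). Of 1035 identifiers detected on 1 array, 378 were left without a fold because the raised signal was the brighter one. They counted as 0 in the median over all identifiers. Numbers of probes were read from the detection p-values, as steps of 1/936 and sums of such steps. Log2 fold changes were computed with Python 3.11.15 and pandas 2.3.3, and normexp corrections with limma 3.58.1 in R 4.3.3. The limit of 1.5-fold follows the study. The calculation was tested on simulated data with changes well past the limit. That does not test it near 1.5-fold or for identifiers detected on 1 array.

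The 8 factors, the gene lists and the rules were chosen with earlier results of these data known. The rule for named genes was the 8 factors, genes of the lists and the 3 identifiers nearest to Nanog. List genes were matched by Entrez gene number (71) or symbol (12) through the RefSeq gene table of GRCm38.p6, and 1 was not matched. Promoter sequences are from RefSeq. Protein sequences were not analysed here. With 1 array per condition, no test was run.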

Additional observations from a re-analysis of the deposited data

How the results depend on the processing

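The alternatives were quantile normalization, scaling to equal medians, normexp correction fitted on all identifiers or on those that appear to have 1 probe (both with an offset of 16), a looser detection limit of 0.05, a rule of detection on both arrays, the lowest detected signal over all identifiers as minimum, no minimum, a pseudocount of 16, the shorter table, a limit of 2-fold and, chosen after seeing the data, detection by signal. A value counted as moved when it crossed the limit or when the unlogged fold changed by over 1.5 times. By construction, 7 of the 12 alternatives leave the values of the 6 detected factors as they were. The other 5 were quantile normalization, equal medians, both normexp fits and the pseudocount. Under these, 26 of 30 values did not move, 4 did and 0 changed direction. Neither the pseudocount nor equal medians could turn a direction here. Under quantile normalization and both normexp fits the direction follows the change in percentile within the arrays, so these are no check beyond that change. With scaling to equal medians Nanog had a log2 fold change of 0.59. With normexp on all identifiers Nanog had 0.75, Tbx3 0.22 and Nr5a2 0.22, and the median of the detected factors was 0.29. At the looser limit Prdm14 entered, detected in LIF only, with -0.22. That value is a bound, since the LIF plus CHIR signal of Prdm14 was raised to the minimum. Its deposited signals had a ratio of 0.78. The median over the 7 factors was 0.55. At the limit of 2-fold Tfcp2l1 (0.82) was not called. The count of factors past the limit was 3 under the main values (2.64% of all detected identifiers), 4 with equal medians (3.21%), 2 with normexp on all identifiers (0.572%), 2 at the 2-fold limit (0.666%) and 3 under each of the others (2.37% to 4.11%). No paired analysis was possible because there was a single array with LIF alone and a single array with CHIR. Nr0b1 and Prdm14 were not compared under the main values because neither was detected at 0.01, and 1 array per condition limits all 8 factors.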

Other observations

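Regulators upstream of the factors were measured on the same arrays. Tcf7l1, the repressor of several of these genes, had a signal of 2798 in LIF and 2424 in LIF plus CHIR, a ratio of 0.87. Of its list of 5, Ctnnb1 (563.7 and 528.7), Ctbp2 (1758 and 1483) and Tle4 (2842 and 2462) were also detected, and none of the 4 passed 1.5-fold. In the LIF-Stat3 list of 5 genes, Stat3 had 1403 and 1563. Socs3, a feedback inhibitor that Stat3 induces, had 3733 and 4234, and Lifr had 77.4 and 61.0. None of these was past the limit. Il6st (155.0 and 153.4) and Jak1 (122.7 and 133.1) were not called detected on either array.

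Of 10 target genes of β-catenin, 7 were detected on at least 1 array, with a median log2 fold change of 1.91. At least 1.5-fold higher were 4 of them, beside 2.64% of all detected identifiers. Cdx1 was 12.8-fold higher (75.2 and 963.2). Sp5 was at least 15.6-fold and T at least 7.60-fold higher, as neither was detected in LIF. Ccnd1 (1.11-fold) and Notum (1.02-fold) were nearly level. Tcf7 (27.5 and 46.0) was detected in LIF plus CHIR only. It was left without a fold, because its raised LIF signal was the brighter one, and counted as 0 in the median. Lef1 (21.4 and 8.84), Nkd1 (12.9 and 10.9) and Lgr5 (-1.58 and 5.50) were not detected on either array. Tcf7l2 was not called detected either, with detection p-values of 0.59 and 0.35. Its signals of 94.9 and 91.6 lay above the minimum signals of 51.9 and 47.1, so this call does not show that its RNA was absent.

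The detection p-values of some bright pluripotency genes would remove them from a table filtered at 0.01. Klf5 had signals of 7356 and 8295 with detection p-values of 0.27 and 0.49, and Sox2 had 441.2 and 400.2 with 0.050 and 0.28. Both sets of values equal the distribution function of a sum of 2 uniform p-values, with sums of 690 and 923 steps of 1/936 for Klf5 and 297 and 695 for Sox2, so at least 1 probe of each ranked within the negative controls while the average was bright. Of 3335 identifiers with a signal of at least 1000 on both arrays, 260 (7.80%) had a detection p-value of 0.01 or more on both. Of these, 149 matched 2 probes, 72 matched 3 probes, 39 matched none of 1 to 3 and 0 matched 1 probe.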
